A study of Homo sapiens with 8 samples.

Results

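SNAI1, SNAI2, ZEB1, ZEB2 and TWIST1 encode the DNA-binding factors most often used to describe epithelial-mesenchymal transition (EMT), and their RNA was followed in 8 libraries of a lung adenocarcinoma line. The genes were chosen by name, 5 of the 30017 gene symbols in the tables, with earlier results of these data known. Records of the same symbol were summed. All libraries came from A549-S3KO cells, derived from A549 cells by knockout of SMAD3, which encodes an intracellular mediator of TGF-β signaling. Lentivirus then gave them wild-type Smad3 (WT cells) or the mutant Smad3(RA/KP) (RA/KP cells), in which 2 neighbouring residues of the β4 region in the DNA-binding MH1 domain are replaced. Each line was sampled untreated and 8 h after 1 ng/ml TGF-β, on collagen-coated plates, with n = 2 libraries in each of the 4 groups. Treated cells had been trypsinized and reseeded when TGF-β was added, and whether the untreated cells were handled in the same way is not stated. Infected cells were cloned by limiting dilution, the WT clone with the lowest Smad3 expression was taken, and the clones that were sequenced are not named. A difference between the lines therefore cannot be told apart from a difference between clones. The replicates are described as independent experiments. Libraries with the same replicate number are taken below as 1 experiment, which the labels do not state.

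Snail (SNAI1) and Slug (SNAI2) are zinc-finger repressors, and so are ZEB1 and ZEB2, whose zinc-finger clusters at each end of the protein bind paired sites. All of them bind E-boxes with the core CAGGTG and are known for repressing CDH1, which encodes the adherens junction protein E-cadherin. TWIST1 is a basic helix-loop-helix protein that binds other E-boxes as a dimer with the products of TCF3, TCF4 or TCF12. TGF-β is a classic inducer of SNAI1 in epithelial cells, and Smad3 with Smad4 is known to act on its promoter. ZEB1 and ZEB2 mRNAs are held down in epithelial cells by the miR-200 family, whose genes the ZEB proteins repress in turn.

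The miR-200 family is shown because it is the best-known repressor of the ZEB members measured here. The mature sequences are from RefSeq, GRCh38.p14, 5′ to 3′, and the capitals mark the seed, bases 2 to 8. The first 3 share the seed AAUACUG and the last 2 the seed AACACUG, which differ by 1 base.
hsa-miR-200b-3p: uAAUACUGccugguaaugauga
hsa-miR-200c-3p: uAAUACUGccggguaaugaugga
hsa-miR-429: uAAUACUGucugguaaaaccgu
hsa-miR-200a-3p: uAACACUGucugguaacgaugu
hsa-miR-141-3p: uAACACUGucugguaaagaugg

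The E-box bound by the SNAI and ZEB proteins was looked for in RefSeq promoter windows, from 250 bases before to 50 bases after a transcript start. The letters searched were CAGGTG on both strands, which reads CACCTG on the other strand. Of the 5 genes, ZEB1 and ZEB2 have windows in that table, 8 in all. The stretch below is the part of the ZEB1 window around the start of its deposited record that precedes the first protein-coding ZEB1 exon there, chr10:31318966-31319124, plus strand, GRCh38.p14, with the E-box in capitals. GENCODE places exons of the antisense gene ZEB1-AS1 and of noncoding ZEB1 transcripts in the same stretch.
ZEB1 promoter: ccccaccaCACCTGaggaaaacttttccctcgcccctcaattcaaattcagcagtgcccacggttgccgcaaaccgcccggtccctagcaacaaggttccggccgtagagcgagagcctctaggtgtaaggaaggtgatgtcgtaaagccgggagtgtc

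The other ZEB1 matches lay 57 bases before an upstream start, and 85 bases before and 33 bases after the start of the window shown. Each is given with its E-box in capitals, at chr10:31318350-31318375, chr10:31319121-31319146 and chr10:31319239-31319264, plus strand.
ZEB1 site at 57 bases before the start: gaggtgacagCAGGTGagggccgggt
ZEB1 site at 85 bases before the start: tgtcgtaaacCAGGTGcggtggggag
ZEB1 site at 33 bases after the start: cggatggcccCAGGTGtaagcgcaga
In all, 2 of the 8 windows of the ZEB genes held the E-box, both of ZEB1, against 20.6% of 35116 promoter windows of all genes. A match of these letters is a description of the sequence and does not show that a factor was bound there.

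The deposited tables are StringTie output and give TPM, an abundance that is scaled for transcript length and library size, so levels of different genes are compared below on the TPM scale. Mapped bases were 1.149 to 1.809 Gb per library, and 12773 to 13281 symbols had a TPM of at least 1. Epithelial and A549 marker genes summed to at least 17119 TPM in every library, with KRT19 listed at 0, and markers of other cell types were mixed. Of 4 leukocyte markers PTPRC and CD3E were listed at 0 throughout, while CD68 was at 51.0 to 104 and CD14 at 4.10 to 13.5 TPM, so that the list summed to 63.5 to 108 TPM. Of 6 fibroblast markers DCN was listed at 0, LUM reached 5.19 TPM and the list summed to 1.20 to 5.61 TPM, and of 3 endothelial markers PECAM1 and VWF were listed at 0 and the list summed to at most 0.210 TPM. The part of these genes in the results was not tested. SMAD3 was at 137 to 187 TPM, which counts transcripts of the lentiviral cDNA and of the disrupted locus together. The 2 untreated RA/KP libraries differed by base composition. The rank correlation across genes of replicate 2 minus replicate 1 with GC content was -0.589, against 0.104 to 0.226 in the other groups. This value does not tell which of the 2 libraries is the unusual one. Replicate 2 also had the largest median-ratio size factor, 1.13. The responses of the tested members in RA/KP cells are given with and without untreated replicate 2. Those of the gene lists without that library are given together after the lists.

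SNAI1 was the member with the clearest response, rising in both lines. In WT cells it was at 3.85 and 4.48 TPM untreated and at 31.1 and 33.7 TPM with TGF-β. In RA/KP cells it was at 5.96 and 3.39 TPM untreated and at 24.9 and 44.5 TPM with TGF-β. Every treated library was above every untreated library, with 24.9 TPM the lowest treated and 5.96 TPM the highest untreated value. The share of all genes without such overlap was not counted, so overlap is given here and below as a description only. The group means were 4.16 ± 0.44 and 32.4 ± 1.8 TPM (SD, n = 2) in WT cells and 4.68 ± 1.81 and 34.7 ± 13.9 TPM (SD, n = 2) in RA/KP cells. The treated WT libraries lay inside the range of the treated RA/KP libraries, so the order of those neighbours is not beyond their spread.

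**Figure D1:**
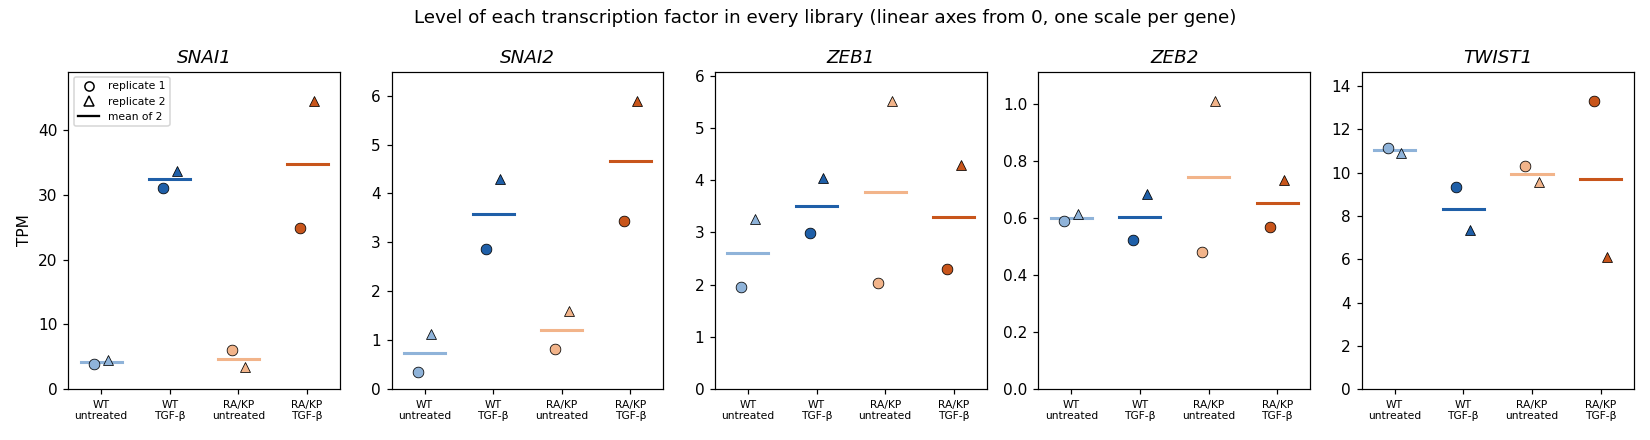
TPM of SNAI1, SNAI2, ZEB1, ZEB2 and TWIST1 (vertical axis, linear from 0, with its own scale for each gene) in the 4 groups (horizontal axis: WT is wild-type Smad3, RA/KP is Smad3(RA/KP)), with circles for replicate 1, triangles for replicate 2 and lines for the mean of 2. SNAI1 and SNAI2 show no overlap between untreated and treated libraries. ZEB1 and ZEB2 overlap in each line, and TWIST1 overlaps in RA/KP but not in WT cells. The share of all genes without overlap was not counted.

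Within an experiment, SNAI1 was 8.07 and 7.53 times higher with TGF-β in WT cells and 4.17 and 13.1 times higher in RA/KP cells. On the log2(TPM + 1) scale, limma gave a rise of 2.69 (SE 0.31, adjusted p = 0.00178) in WT cells and of 2.63 (SE 0.31, adjusted p = 0.00235) in RA/KP cells. Among the 13141 genes tested, 2.94% were called higher in WT cells and 3.49% in RA/KP cells. In WT cells the call was lost only without treated WT replicate 1 (adjusted p = 0.0536), 1 of 16 alternatives. In RA/KP cells it held in 16 of 16, and without untreated replicate 2 the change was 2.12 (adjusted p = 0.0156).

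The aligned bases behind these values are known for SNAI1, since coverage times the 1709 exonic bases of its record came out whole within 0.02 in each library. They ran from 4527 to 68864 bases. The record lies at chr20:49982976-49988886, plus strand, GRCh38, and spans 5.911 kb.

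SNAI2, the gene of Slug, also rose in both lines, from a much lower level. It was at 0.342 and 1.13 TPM in untreated and 2.86 and 4.29 TPM in treated WT cells. The RA/KP libraries gave 0.823 and 1.59 TPM untreated and 3.44 and 5.90 TPM with TGF-β. No treated library overlapped an untreated one in either line, a description without a share of all genes beside it. Replicate 2 was the higher library of every group. The means were 0.738 ± 0.560 and 3.58 ± 1.01 TPM (SD, n = 2) in WT and 1.21 ± 0.54 and 4.67 ± 1.74 TPM (SD, n = 2) in RA/KP cells, and the ranges of the lines overlapped in each condition.

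The fitted rise of SNAI2 was 1.42 (SE 0.26, adjusted p = 0.0156, limma) in WT and 1.35 (SE 0.26, adjusted p = 0.0199) in RA/KP cells. The added 1 TPM shrinks changes of a gene this low: the TPM ratios within an experiment were 8.37 and 3.78 in WT and 4.18 and 3.71 in RA/KP cells, and with 0.1 TPM added the rises were 2.29 and 1.88. The lowest library, untreated WT replicate 1, rested on 496 aligned bases over 2112 exonic bases, and the highest on 11270. SNAI2 reached the filter of a mean of 1 TPM through its treated libraries. Its record is at chr8:48917677-48921440, minus strand, and spans 3.764 kb.

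The SNAI2 calls were less firm than those of SNAI1. Without the replicate block the adjusted p was 0.109 in WT and 0.124 in RA/KP cells. The WT call was also lost when either untreated (adjusted p = 0.160 and 0.117) or either treated WT library (0.222 and 0.157) was left out. The RA/KP call was lost without untreated replicate 2 (adjusted p = 0.0788), without either treated RA/KP library (0.0943 and 0.146) and without either treated WT library (0.0617 and 0.0630). The change stayed positive in each of these settings, between 1.30 and 1.49 on the log2 scale.

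ZEB1 was lowly expressed and its treated and untreated libraries overlapped. It was at 1.96 and 3.26 TPM in untreated and 2.98 and 4.04 TPM in treated WT cells, higher with TGF-β in each experiment. RA/KP cells had 2.03 and 5.52 TPM untreated and 2.30 and 4.29 TPM with TGF-β, higher in the first experiment and lower in the second. The fitted changes were 0.34 (SE 0.27, adjusted p = 0.650) and -0.09 (SE 0.27, adjusted p = 0.872), with 95% intervals of -0.28 to 0.96 and -0.71 to 0.53. Without untreated RA/KP replicate 2, the highest of its 8 libraries, the change in RA/KP cells was 0.20 (adjusted p = 0.804).

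The antisense gene ZEB1-AS1 was at 0.959 to 2.30 TPM. Its deposited record, chr10:31316528-31319095 on the minus strand, does not overlap that of ZEB1, chr10:31319172-31529814 on the plus strand. In RefSeq the genes overlap, with ZEB1-AS1 at chr10:31307717-31320447 and ZEB1 starting at chr10:31318417. The use of strand in counting is not stated in the sources, so reads from that overlap cannot be assigned to a strand.

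ZEB2 was the lowest member by mean TPM and did not reach the mean of 1 TPM needed for testing, so 4 of the 5 genes were tested. It was at 0.589 and 0.614 TPM in untreated and 0.524 and 0.684 TPM in treated WT cells. In the RA/KP line it was at 0.479 and 1.01 TPM untreated and 0.569 and 0.732 TPM with TGF-β. All groups overlapped. In a fit without the filter its change was 0.00 in WT and -0.06 in RA/KP cells, with 95% intervals of -0.37 to 0.37 and -0.44 to 0.31. The added 1 TPM shrinks changes of a gene this low, so these intervals do not bound its fold change tightly. The TPM ratios of ZEB2 within an experiment were 0.890 and 1.11 in WT and 1.19 and 0.724 in RA/KP cells. Its mean depth was 0.369 to 0.811 reads per base when taken from FPKM and mapped bases, while its deposited coverage was 0.181 to 0.445. The deposited coverage of ZEB1, 0.133 to 0.415, overlapped with that of ZEB2. At such depths a small change of ZEB2 was not detectable. The gene lies at chr2:144384375-144520391 on the minus strand, and ZEB2-AS1, which overlaps its 5′ end on the other strand, was listed at 0 in every library.

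TWIST1 was the most abundant member by TPM before treatment. The deposited coverage did not give this order throughout, with TWIST1 at 1.94 to 3.18 and SNAI1 at 2.65 to 4.58 in the untreated libraries. In untreated WT replicate 1 TWIST1 was the higher (2.71 against 2.65), and in the other untreated libraries SNAI1 was. Mean depth taken from FPKM and mapped bases was 7.65 to 9.04 for TWIST1 and 2.65 to 4.59 for SNAI1 in these libraries. The cause of this discrepancy was not tested. TWIST1 was at 11.2 and 10.9 TPM in untreated and 9.34 and 7.35 TPM in treated WT cells, without overlap and lower in each experiment. RA/KP cells showed 10.3 and 9.55 TPM untreated and 13.3 and 6.10 TPM with TGF-β, so the treated libraries lay on both sides of the untreated ones. The fitted changes were -0.37 (SE 0.27, adjusted p = 0.597) in WT and -0.11 (SE 0.27, adjusted p = 0.830) in RA/KP cells, with 95% intervals of -0.99 to 0.24 and -0.73 to 0.50. Without untreated RA/KP replicate 2 the change in RA/KP cells was 0.06 (adjusted p = 0.958). The deposited TWIST1 record spans 118 kb, chr7:18999692-19117672 on the minus strand, while the RefSeq gene spans 4.59 kb, so its TPM may hold reads from outside the RefSeq gene. HDAC9, which ends next to that record, was at 0 to 0.377 TPM.

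**Figure D2:**
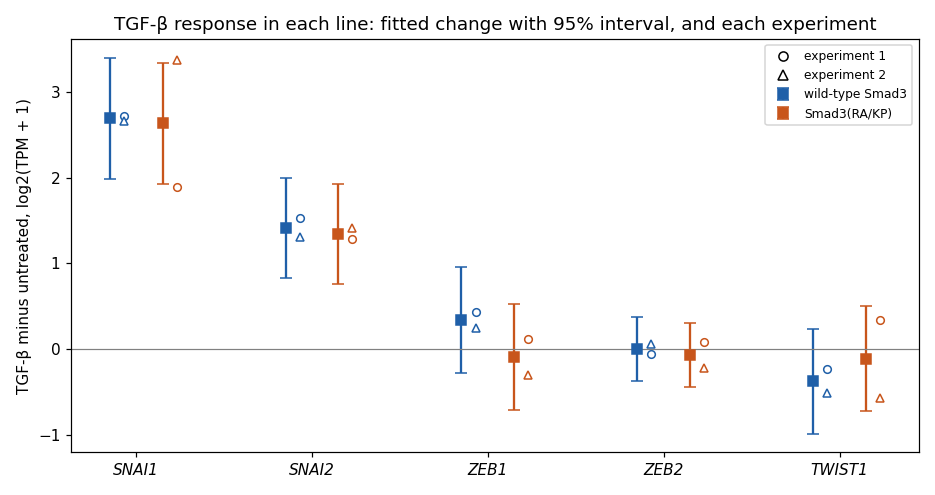
Response to TGF-β of each gene (horizontal axis) as treated minus untreated log2(TPM + 1) (vertical axis), in blue for WT and orange for RA/KP; squares and bars are the limma estimate and its 95% interval, open circles and triangles the 2 experiments, and ZEB2 is from the fit without the filter. SNAI1 and SNAI2 lie above 0 in both lines, near 2.7 and 1.4 in WT cells, and the intervals of ZEB1, ZEB2 and TWIST1 include 0. The added 1 TPM shrinks changes of the lowest genes, ZEB2 most, so its narrow interval is not a tight bound on its fold change.

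The responses of the members in the 2 lines were not distinguished by the test of their difference. For SNAI1 the response in RA/KP minus that in WT cells was -0.06 (SE 0.44, adjusted p = 0.979), with a 95% interval of -1.06 to 0.94. For SNAI2 it was -0.07 (SE 0.36, adjusted p = 0.970; interval -0.89 to 0.76), for ZEB1 -0.43 (SE 0.39, adjusted p = 0.883; interval -1.30 to 0.45) and for TWIST1 0.26 (SE 0.38, adjusted p = 0.908; interval -0.61 to 1.13). The SNAI1 interval leaves room for a difference of about 1 on the log2 scale in either direction, and that of ZEB1 mainly for a smaller response in RA/KP cells. In this contrast limma called 0.0228% of all genes.

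Levels were also compared between the lines within each condition, where 0.0152% of genes were called untreated and 0.00761% with TGF-β. Limma called 0 of the 4 tested members in either condition, and 0 had an unadjusted p under 0.05. SNAI1 was 0.10 (95% interval -0.61 to 0.81) higher in RA/KP cells untreated and 0.04 (-0.67 to 0.75) higher with TGF-β. The corresponding differences were 0.36 (-0.22 to 0.94) and 0.29 (-0.29 to 0.88) for SNAI2, 0.33 (-0.30 to 0.95) and -0.10 (-0.72 to 0.53) for ZEB1, and -0.14 (-0.75 to 0.47) and 0.12 (-0.50 to 0.73) for TWIST1.

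With SNAI1 rising and TWIST1 not, the order of the members by TPM changed. The place of TWIST1 carries the limit of its long deposited record given above. Over the 4 untreated libraries the mean levels were 10.5 ± 0.7 TPM for TWIST1, 4.42 ± 1.12 for SNAI1, 3.19 ± 1.66 for ZEB1, 0.973 ± 0.526 for SNAI2 and 0.673 ± 0.233 for ZEB2 (SD, n = 4, both lines). TWIST1 was above SNAI1 in every untreated library, whereas SNAI1 overlapped with ZEB1 and SNAI2 with ZEB2. Over the 4 treated libraries they were 33.5 ± 8.2 TPM for SNAI1, 9.03 ± 3.16 for TWIST1, 4.12 ± 1.32 for SNAI2, 3.40 ± 0.93 for ZEB1 and 0.627 ± 0.097 for ZEB2. SNAI1 was then above TWIST1 in every library, TWIST1 above SNAI2 and ZEB1, and SNAI2 and ZEB1 overlapped.

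The 5 genes together rose from 17.9 to 21.1 TPM in the untreated libraries to 44.5 to 61.5 TPM in the treated ones. SNAI1 made up 16.1 to 30.4% of this sum untreated and 55.9 to 72.3% with TGF-β. The share of TWIST1 was 45.3 to 62.3% untreated and 9.91 to 30.0% with TGF-β. These sums and shares include TWIST1 TPM, which may hold reads from outside the RefSeq gene.

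**Figure D3:**
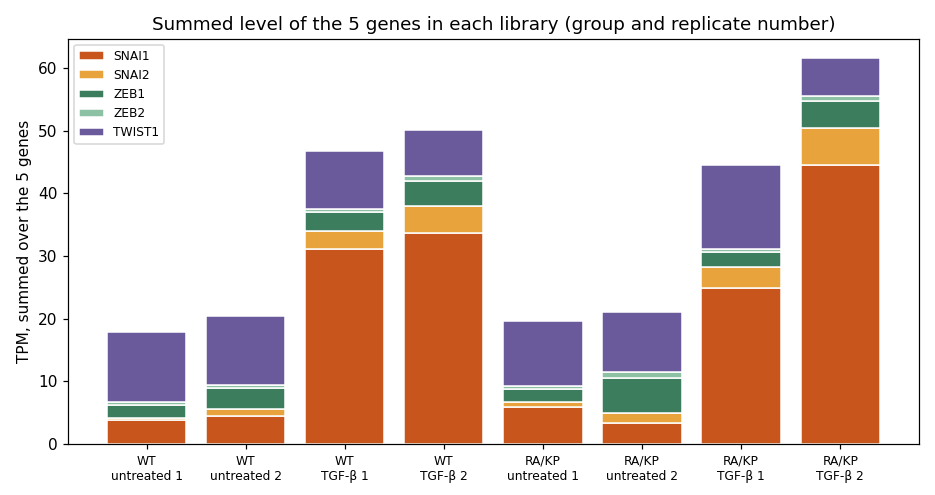
TPM of the 5 genes stacked in each library (vertical axis, from 0), with libraries named by group and replicate number on the horizontal axis. The treated libraries reach 44.5 to 61.5 TPM, mostly SNAI1, and the untreated ones 17.9 to 21.1 TPM, with TWIST1 at 45.3 to 62.3% of the sum. TWIST1 TPM may hold reads from outside the RefSeq gene.

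The replicates differed in a like manner for several members. SNAI2, ZEB1 and ZEB2 were higher in replicate 2 than in replicate 1 in all 4 groups, by 0.45 to 0.67, 0.34 to 1.11 and 0.02 to 0.44 on the log2(TPM + 1) scale, and TWIST1 was lower in all 4, by -1.01 to -0.03. Of all genes tested, 16.2% were higher and 9.66% lower in replicate 2 in every group. The GC content of the longest transcript was 41.4% for SNAI2, 38.4% for ZEB1, 39.1% for ZEB2, 57.2% for TWIST1 and 58.4% for SNAI1. The part of base composition in these differences was not tested gene by gene. With the GC trend of each library removed and the replicate block kept, the responses of SNAI1 were 2.75 and 2.47 and those of SNAI2 1.47 and 1.67 in WT and RA/KP cells.

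**Figure D4:**
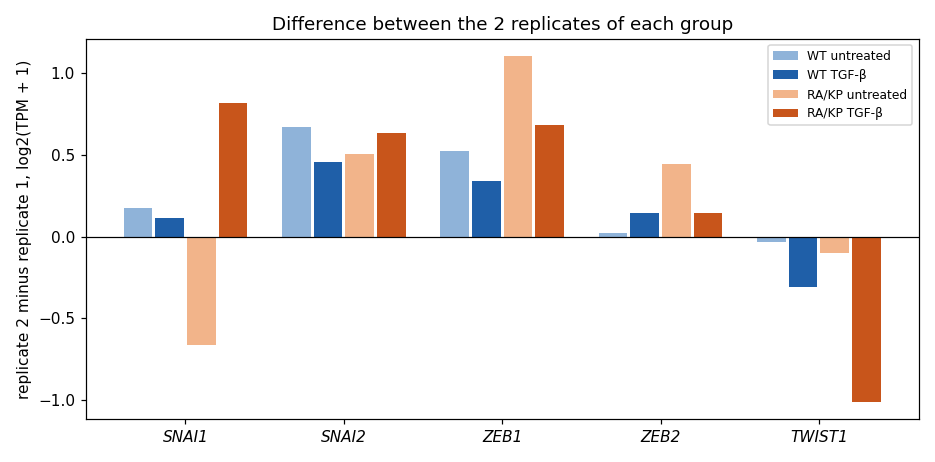
Replicate 2 minus replicate 1 in log2(TPM + 1) (vertical axis) for each of the 5 genes (horizontal axis), with a bar for each of the 4 groups. The bars of SNAI2, ZEB1 and ZEB2 are above 0 in all groups, those of TWIST1 below 0, and those of SNAI1 lie on both sides, from -0.66 to 0.82.

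The genes most like each member were taken by Pearson's r of log2(TPM + 1) over the 8 libraries, among the 9460 genes whose mean reached 5 TPM. For SNAI1 these were SPHK1 (r = 0.994), which encodes a sphingosine kinase, ARID5A (0.994) and FAM214B (0.993). SPHK1 ran from 6.78 to 127 TPM and was called higher in both lines, by 3.35 and 3.40 on the log2 scale. For SNAI2 they were SUFU (0.990), JUN (0.988) and PODXL (0.986), where SUFU encodes a negative regulator of Hedgehog signaling and JUN an AP-1 subunit. JUN ran from 44.6 to 237 TPM and rose by 1.47 and 1.58 (adjusted p = 0.00218 and 0.00183). The 8 points share treatment and replicate number, so these values of r are a description. For ZEB1 the nearest genes were FAM126A (0.985), SNAP29 (0.969) and DMTF1 (0.965), and for TWIST1 LYPD1 (0.962), POLE (0.951) and ZNF317 (0.949), and none of these 6 passed the test for a TGF-β response in either line.

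Among 13 other EMT transcription factors, 10 were tested, and 1 was called higher and 0 lower in each line, with median changes of 0.14 and 0.15 against -0.06 and -0.10 over all genes. Of all genes, 2.94% in WT and 3.49% in RA/KP cells were called higher, and 1.74% and 1.50% lower. At an unadjusted p under 0.05, 1 was lower in each line, against 8.93% and 12.1% of all genes. The gene called was HMGA2, an architectural chromatin protein known to act with Smads on the SNAI1 promoter. It was at 9.20 and 29.3 TPM in untreated and 32.0 and 81.7 TPM in treated WT cells, and at 10.8 and 37.2 TPM and 37.0 and 71.0 TPM in RA/KP cells. Replicate 2 was far above replicate 1 in every group. Untreated and treated libraries did not overlap in WT cells, while in RA/KP cells untreated replicate 2 was just above treated replicate 1.

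HMGA2 rose by 1.57 (SE 0.22, adjusted p = 0.00429) in WT and by 1.30 (SE 0.22, adjusted p = 0.0106) in RA/KP cells. Its call rested on the replicate block, without which the adjusted p was 0.390 and 0.380. It was also lost without either treated WT library (0.0910 and 0.0714) in WT cells, and without the filter (0.0702) or without treated RA/KP replicate 1 (0.0896) in RA/KP cells.

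Paralogs of the members were also measured. TWIST2, the close relative of TWIST1, was at 15.9 to 24.1 TPM, above TWIST1 in all 8 libraries, and its changes were -0.11 (adjusted p = 0.890) and 0.05 (adjusted p = 0.911). SNAI3 stayed at 0 to 0.991 TPM and was not tested. TCF3, TCF4 and TCF12, partners of the TWIST proteins, were at 28.0 to 51.3, 0.902 to 1.58 and 12.8 to 23.5 TPM. PRRX1 and KLF8 were listed at 0 in every library.

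The genes that the SNAI and ZEB proteins are known to repress were followed in a list of 24 epithelial genes, of which 23 are in the tables and 13 were tested. Limma called 0 of them lower in either line, against 1.74% of all genes in WT and 1.50% in RA/KP cells. At an unadjusted p under 0.05, 5 were lower in each line, CDH1, CLDN3, CRB3, LLGL2 and PKP3 in WT and CDH1, CLDN1, EPCAM, LLGL2 and OCLN in RA/KP cells. Of all genes tested, 8.93% in WT and 12.1% in RA/KP cells were lower at that p, and 16.5% and 21.9% passed it in either direction. Over the list, 11 of 13 estimates were negative in WT and 8 in RA/KP cells, with medians of -0.40 and -0.26 against -0.06 and -0.10 over all genes. ESRP1, GRHL2, KRT19 and ST14 were at 0 in every library.

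CDH1 was at 10.3 and 5.51 TPM in untreated and 2.61 and 2.44 TPM in treated WT cells, without overlap. The RA/KP values were 7.48 and 6.84 TPM untreated and 5.69 and 1.59 TPM with TGF-β, again without overlap. The share of all genes without overlap was not counted, so this separation is a description only. The estimates were -1.28 (SE 0.34, adjusted p = 0.0740) and -0.97 (adjusted p = 0.148), so the decrease did not pass the test in either line. In WT cells it passed with FPKM in place of TPM (adjusted p = 0.0499), with the GC trend removed (0.0287), and without either treated RA/KP library (0.0463 and 0.0428). In RA/KP cells it passed in 0 of 16 alternatives.

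The 1 epithelial gene called was CLDN4, which encodes a tight junction claudin, and it rose. It was at 4.27 and 2.18 TPM in untreated and 62.6 and 37.6 TPM in treated WT cells, and at 5.21 and 3.93 TPM and 58.8 and 43.9 TPM in RA/KP cells. The rise was 3.60 (SE 0.20, adjusted p = 9.4e-05) in WT and 3.23 (SE 0.20, adjusted p = 0.000134) in RA/KP cells, in the direction opposite to the median of its list, and it held in 16 of 16 alternatives in each line.

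Promoter windows were available for 10 of the epithelial genes, 13 windows in all, and 9 of these (69.2%) held the E-box, against 20.6% of all windows. The list holds genes that the SNAI and ZEB proteins are known to repress, so this share is not independent of that choice. The 2 MUC1 windows hold the same 2 sites. CRB3, which encodes an apical polarity protein, had 5 matches, and OCLN, the gene of occludin, had 3. The CLDN4 window held none. The CRB3 sites lie between chr19:6464033 and chr19:6464226 on the plus strand and the OCLN sites between chr5:69492504 and chr5:69492839 on the plus strand, shown here with the E-box in capitals.
CRB3 site at 228 bases before the start: gctcgcaatgCAGGTGtaaggtcccc
CRB3 site at 208 bases before the start: gtccccctcaCACCTGcgcgcttccg
CRB3 site at 147 bases before the start: ggtcccgttaCAGGTGcgcccacagc
CRB3 site at 89 bases before the start: cagcgaggctCAGGTGcacaagccgg
CRB3 site at 60 bases before the start: tgcgctctccCAGGTGagtgactaaa
OCLN site at 33 bases before an upstream start: atccgagtttCAGGTGaattggtcac
OCLN site at 133 bases before the start: taggacgcagCAGGTGggactcgcgg
OCLN site at 35 bases after the start: ggtgcggcgtCAGGTGcgcccgcca

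Of the 7 epithelial genes with an E-box in a window, 5 were tested, and their changes ran from -1.24 to 0.08 in WT and from -0.92 to 0.48 in RA/KP cells, with 0 called in either line. CRB3 and OCLN were chosen here for their matches after values were known. CRB3 changed by -0.63 (adjusted p = 0.292) and -0.59 (adjusted p = 0.250), and OCLN by -0.54 (adjusted p = 0.375) and -0.92 (adjusted p = 0.0919). Among mesenchymal genes, 2 of 13 windows (15.4%) held the E-box, those of LOXL3 and S100A4.

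**Figure D5:**
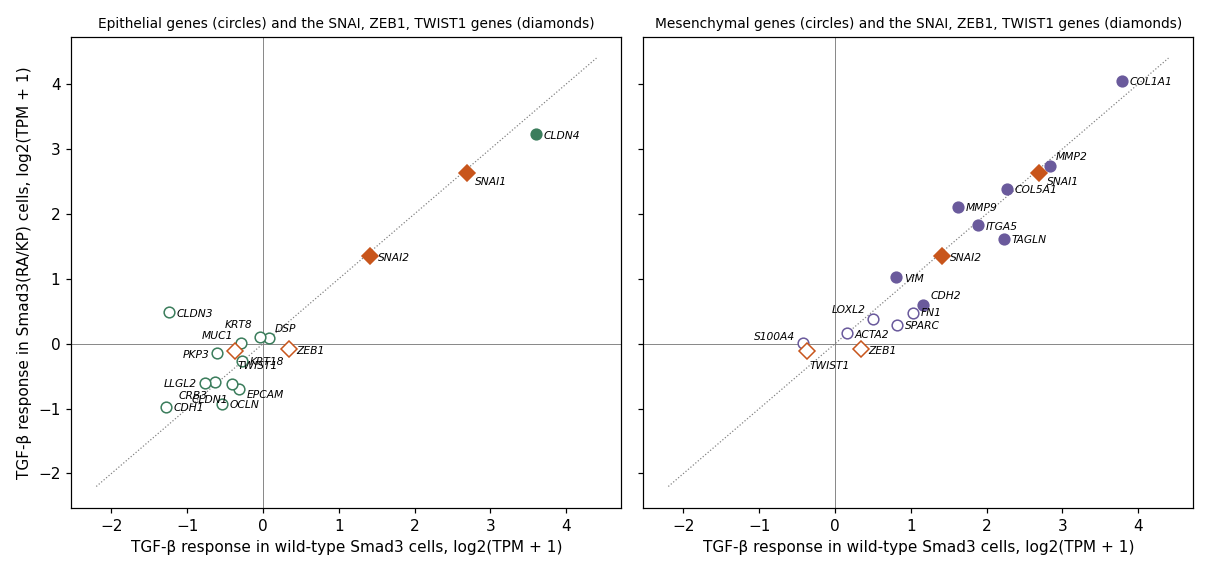
TGF-β response in WT cells (horizontal axis) against that in RA/KP cells (vertical axis), both as log2(TPM + 1), for the tested epithelial genes (left) and mesenchymal genes (right), with diamonds for the 4 tested SNAI, ZEB and TWIST genes and filled symbols for genes called in at least 1 line. The dotted line marks equal responses. SNAI1 and SNAI2 lie at 2.69 and 2.63, and 1.42 and 1.35, and CLDN4 is the only filled epithelial gene.

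Of 17 mesenchymal genes listed, 13 were tested, and 8 were called higher in WT and 7 in RA/KP cells, against 2.94% and 3.49% of all genes, and 0 lower, against 1.74% and 1.50%. The medians were 1.16 and 1.02 against -0.06 and -0.10 over all genes. At an unadjusted p under 0.05, 1 was lower in WT cells, S100A4, and 0 in RA/KP cells. COL1A1, a fibrillar collagen chain, rose from 10.5 and 6.17 to 157 and 99.0 TPM in WT and from 12.3 and 3.87 to 169 and 104 TPM in RA/KP cells, by 3.79 (adjusted p = 9.4e-05) and 4.05 (adjusted p = 0.000125) on the log2 scale. MMP2, a gelatinase, rose by 2.84 and 2.73, COL5A1, another collagen chain, by 2.27 and 2.39, and ITGA5, the fibronectin receptor subunit, by 1.88 and 1.83. These calls held in 16 of 16 alternatives in each line.

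CDH2, which encodes N-cadherin, was at 30.7 and 25.9 TPM in untreated and 58.9 and 69.7 TPM in treated WT cells, and rose by 1.16 (SE 0.19, adjusted p = 0.00894). RA/KP libraries held 31.1 and 36.1 TPM untreated and 54.1 and 48.6 TPM with TGF-β, a change of 0.60 (SE 0.19, adjusted p = 0.111) that did not pass. The difference of these responses, -0.56 (SE 0.26, adjusted p = 0.881), did not pass either. VIM, the gene of vimentin, was at 1157 to 1897 TPM untreated and 1923 to 3502 TPM with TGF-β, and rose by 0.81 (adjusted p = 0.0303) and 1.02 (adjusted p = 0.0106). The VIM call held in 10 of 16 alternatives in WT and 12 of 16 in RA/KP cells, and without the replicate block the adjusted p was 0.405 and 0.218. The CDH2 call in WT cells held in 12 of 16.

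SPARC, a matricellular protein gene in the same list, was the listed gene that differed between the lines. It was at 128 and 131 TPM in untreated WT and 35.1 and 23.5 TPM in untreated RA/KP cells, and at 228 and 232 TPM against 44.98 and 27.7 TPM with TGF-β. The differences were -2.13 (SE 0.21, adjusted p = 0.0268) and -2.67 (SE 0.21, adjusted p = 0.00824), which passed in 6 and 10 of 16 alternatives.

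SNAI and ZEB proteins repress through partners, and these partners were measured in a list of 20 co-repressors and chromatin enzymes, all tested. Limma called 0 in either line, and at an unadjusted p under 0.05 there were 6 in WT and 4 in RA/KP cells, against 16.5% and 21.9% of all genes, with medians of -0.17 and -0.15 against -0.06 and -0.10. The smallest p in each line belonged to LIMD1, a LIM protein that bridges Snail to its repressor complex. It was at 13.95 and 15.6 TPM in untreated and 7.60 and 8.81 TPM in treated WT cells, and at 15.6 and 13.2 TPM and 8.05 and 8.13 TPM in RA/KP cells, without overlap. This separation is a description only, as for CDH1. The LIMD1 changes of -0.78 (adjusted p = 0.0768) and -0.76 (adjusted p = 0.0804) did not pass. In WT cells LIMD1 passed in 3 of 16 alternatives, with the GC trend removed (0.0489) and without either untreated RA/KP library (0.0352 and 0.0337). Its relative AJUBA changed by -0.70 (adjusted p = 0.0960) and -0.40 (adjusted p = 0.274).

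Snail protein is short-lived, and the kinases, ubiquitin ligases and deubiquitinases known to act on it and on its relatives were followed in a list of 22 genes, 21 of them tested. Limma called 0 in either line, with medians of 0.06 and -0.09. At an unadjusted p under 0.05 there were 0 in WT and 2 in RA/KP cells, against 16.5% and 21.9% of all genes. Protein was not measured in these libraries.

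Receptors, Smads and early targets were listed as the input to the members, 13 genes that were all tested. In WT cells 5 were called higher and 2 lower, against 2.94% and 1.74% of all genes. In RA/KP cells 5 were called higher and 1 lower, against 3.49% and 1.50%. HMGA2 is counted here as well as above. SMAD7, the inhibitory Smad, rose by 1.03 (adjusted p = 0.0116) and 1.08 (adjusted p = 0.0104), and TGFBR1, the type I receptor gene, by 1.81 (adjusted p = 0.00318) and 1.36 (adjusted p = 0.0131). The SMAD7 call was lost in 4 of 16 alternatives in WT (adjusted p up to 0.177, without any 1 WT library) and 2 of 16 in RA/KP cells (up to 0.0892, without either treated RA/KP library). The TGFBR1 call was lost in 2 of 16 in WT (up to 0.0748, without either treated WT library) and 3 of 16 in RA/KP cells (up to 0.110, without either treated RA/KP library or without the filter). TGFBR2, the type II receptor gene, fell by 1.02 (adjusted p = 0.0294) and 0.98 (adjusted p = 0.0351) on the log2 scale. Its TPM was 31.8 to 35.7 untreated and 13.5 to 22.7 with TGF-β. The TGFBR2 call held in 10 of 16 alternatives in WT and 8 of 16 in RA/KP cells, and was lost in both lines without the replicate block (adjusted p = 0.0847 and 0.0991).

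Without untreated RA/KP replicate 2, the RA/KP response had 283 genes called higher and 71 lower of 13141, with a median change of -0.01. Of the epithelial genes, 1 was then called higher and 0 lower, with a median of -0.35, and CLDN4 changed by 3.37 (adjusted p = 0.00182) and CDH1 by -0.66 (adjusted p = 0.526). Of the mesenchymal genes 6 were called higher, with a median of 1.01, and VIM no longer passed (1.01, adjusted p = 0.0507). CDH2 did not pass without that library either (0.73, adjusted p = 0.142). Of the receptor, Smad and early target genes, 4 were called higher and 0 lower, with SMAD7 at 1.13 (adjusted p = 0.0280), TGFBR1 at 1.66 (adjusted p = 0.0166) and TGFBR2 at -0.80 (adjusted p = 0.165), which no longer passed. HMGA2, at 1.51 (adjusted p = 0.0264), was again the 1 gene called among the other EMT transcription factors. The co-repressors and the regulators of protein stability had 0 called and medians of -0.07 and 0.11.

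The loci of the microRNAs shown above gave little signal. Of 9 listed miR-200, miR-205 and related loci, 7 are in the tables and 0 reached the filter. MIR200A, MIR200B, MIR141 and MIR205 were listed at 0 in every library, MIR200C was at 0.625 TPM in 1 library, MIR429 at 0.133 and 1.36 TPM in 2, and MIR205HG at 0.010 to 0.206 TPM. These libraries were made from poly(A) RNA, so mature microRNAs were not measured. Of 10 antisense and neighbouring genes of the members, 6 were tested and 0 were called in either line, with medians of -0.02 and -0.21. At an unadjusted p under 0.05 there were also 0, against 16.5% of all genes in WT and 21.9% in RA/KP cells.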

How the data were processed

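The authors made poly(A) RNA libraries (Ion Total RNA-Seq Kit v2), aligned reads with HISAT2 2.1.0 and quantified known genes of GRCh38 with StringTie 2.0.4, versions as in the submitters' processing notes, without de novo assembly. The deposited tables give TPM, FPKM and coverage (signal) per gene record, 1 table per library, scaled by the authors for length and library size (TPM and FPKM). Read counts and the annotation release are not given in these sources, so no counting intervals are given. Mapped bases per library were taken as the commonest ratio of coverage to FPKM.

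Records of a symbol were summed (33122 records, 30017 symbols). Genes whose mean TPM over the 8 libraries reached 1, 13141 in all, were fitted with limma 3.58.1 (R 4.3.3) on log2(TPM + 1): 4 groups, replicate number as a block, empirical Bayes with trend, and p-values adjusted by Benjamini-Hochberg at 0.05 (3 residual and 5.90 prior degrees of freedom). Fold changes are on that scale. The study compares treated with untreated cells within independent experiments, so the block was kept. That a replicate number marks the same experiment in all groups is an assumption: deviations of same-numbered libraries from group means correlated at 0.0484 (between the RA/KP groups) to 0.332, which with 2 replicates does not establish the pairing. Alternatives were other pseudocounts, filters, FPKM, median-ratio scaling, no block, GC trend removed (GC known for 87.8% of genes) and each library left out, where a lone library is assumed to vary like the other groups. The fit was tested on simulated data. P-values measure the spread between these libraries.

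The members and gene lists were chosen with earlier results of these data known. Each list gave up to 4 named genes among those called, by p, or otherwise up to 2. CDH1 was always named, and other genes, CDH2, VIM, TGFBR2, TWIST2, CRB3 and OCLN among them, were named for their role after values were known. Sequences are from RefSeq tables (GRCh38.p14), which hold promoters of 2 of the 5 members. Values of 2 listed genes are not reported here.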

Additional observations from a re-analysis of the deposited data

Results flagged for a closer look

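In 4 of 107 listed genes tested, both experiments moved one way in WT cells and the opposite way in RA/KP cells, and none of the 4 passed limma's test of the difference of responses. TCF3, which encodes a partner of the TWIST proteins, had ratios on the log2(TPM + 1) scale of -0.20 and -0.03 in WT and 0.08 and 0.85 in RA/KP cells, a difference of 0.577 (adjusted p = 0.881). USP27X, a deubiquitinase known to act on Snail, had ratios of 0.37 and 0.10 in WT and -0.07 and -0.77 in RA/KP cells, a difference of -0.658 (adjusted p = 0.881). ALDH1A1, one of the A549 markers, had ratios of 0.11 and 0.18 and of -0.08 and -0.78, a difference of -0.571 (adjusted p = 0.881). GSK3A, which encodes a kinase, had ratios of -0.02 and -0.06 and of 0.17 and 0.22, a difference of 0.239 (adjusted p = 0.883). In each of the 4 genes the ratio largest in size was that of replicate 2 in RA/KP cells, which involves the untreated and the treated library. For GSK3A it was close to that of replicate 1. The part of either library or of base composition in these ratios was not tested. Without untreated RA/KP replicate 2 the RA/KP responses were 0.13 for TCF3, -0.13 for USP27X, -0.12 for ALDH1A1 and 0.10 for GSK3A. None of the tested members met this description.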

How the results depend on the processing

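With 2 libraries per group, the calls depend on single libraries. Of the 2 members called in each line, SNAI1 and SNAI2, 1 was called with a mean filter of 5 TPM, which removes SNAI2, and 1 without the replicate block. Leaving out each library in turn gave 0 to 2 called members in WT and 1 to 2 in RA/KP cells. The 0 came without treated WT replicate 1. No alternative called a member in the difference of the responses or between the lines.

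Over all genes, 615 were called in WT cells and 655 in RA/KP cells. These counts were 287 and 242 with no filter, 277 and 269 without the replicate block and, in WT cells, 1198 with the GC trend removed. Leaving out 1 library gave 106 (without treated WT replicate 1) to 1011 in WT and 163 (without treated RA/KP replicate 2) to 2622 in RA/KP cells, both highest without untreated RA/KP replicate 1. For the difference of the responses (3 genes called) the count was 1 with a pseudocount of 0.1 TPM or a mean filter of 5 TPM, 0 with no filter or with the GC trend removed (861 and 551 genes at an unadjusted p under 0.05), and 0 to 8 with a library left out. Between untreated lines (2 called) it was 1 without the replicate block, 0 with the GC trend removed (501 at an unadjusted p under 0.05) and 1 to 7 with a library left out. Between treated lines (1 called) it was 3 with a pseudocount of 0.1 TPM, 0 with no filter or the GC trend removed (1240 and 1034 at an unadjusted p under 0.05), and 0 to 6 with a library left out. The causes were not tested.

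Among the members' values, changes of sign occurred only in those that had not passed the test. With the GC trend removed (replicate block kept), the treated lines differed by -0.12 for SNAI1, 0.084 for ZEB1 and -0.024 for TWIST1, the difference of responses was 0.20 for SNAI2, and the response of ZEB1 in RA/KP cells was 0.29. With a library left out, the difference of responses ran from -0.58 to 0.45 for SNAI1, -0.14 to 0.0053 for SNAI2 and -0.18 to 0.69 for TWIST1. Between untreated lines SNAI1 ran from -0.41 to 0.62 and TWIST1 from -0.36 to 0.082, and between treated lines SNAI1 from -0.43 to 0.51, ZEB1 from -0.32 to 0.11 and TWIST1 from -0.32 to 0.55. The response in RA/KP cells ran from -0.38 to 0.20 for ZEB1 and from -0.55 to 0.32 for TWIST1. The replicate block rests on 2 numbers per group, whose pairing the data do not establish, so calls that need it, those of SNAI2, HMGA2, VIM and TGFBR2 among them, depend on that assumption. Read counts are not known, so counting error was not separated from the spread between libraries.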
